A study of Mus musculus with 2 samples.

Results

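In mouse, the Mir669, Mir467, Mir466 and Mir297 families are microRNA genes with repeat-like hairpins. They were taken by gene symbol in the GENCODE M21 annotation, where 81 of the 2202 microRNA genes in the files carry one of these 4 family names. They comprise 30 miR-669, 28 miR-466, 17 miR-467 and 6 miR-297 genes. Of the 81, 71 lie inside the gene Sfmbt2 on chromosome 2 and 10 lie elsewhere. The data are 2 microRNA-seq libraries of total RNA from the adrenal gland. The tissue came from B6CASTF1/J males, first-generation hybrids of C57BL/6J and CAST/EiJ, at an age of 36 days. The labels number the animals separately but list 1 donor record for both, name no treatment and give a single group. A test between the libraries therefore compares these 2 libraries, and its p-value measures only their counting error.

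MicroRNAs are cut from hairpin precursors, and bases 2 to 8 of the mature strand, the seed, pair with target messenger RNAs. Sfmbt2 encodes a Polycomb group protein, and in mouse extraembryonic tissue it is expressed from the paternal chromosome. The large intronic microRNA array of Sfmbt2 arose in rodents by repeated duplication and is known mainly from the placenta and early embryo. Duplicated hairpins can yield the same mature microRNA, and a read of it then matches several places in the genome.

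The repeat character of these families can be read in the mature sequences. RefSeq (GRCm38.p6) gave a mature sequence for 8 of the 81 genes, all of them outside Sfmbt2. All 8 are shown, and they were not picked by sequence or level. They fall into an AC-rich and a GU-rich type and include 1 counted gene. Capitals mark the seed, and the sequences run 5′ to 3′.
miR-466q, chr3:28419988-28420007, plus strand: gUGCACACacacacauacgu
miR-467g, chr5:34732872-34732892, minus strand: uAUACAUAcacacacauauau
miR-467f, chr11:69635419-69635439, minus strand: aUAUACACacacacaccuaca
miR-466i-3p, chr13:17747552-17747573, plus strand: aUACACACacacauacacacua
miR-466k, chr3:85467396-85467418, plus strand: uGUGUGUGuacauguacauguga
miR-669n, chr3:115979905-115979924, plus strand: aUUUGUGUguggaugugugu
miR-467h, chr9:115381898-115381919, plus strand: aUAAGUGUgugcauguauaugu
miR-466j, chr10:60960802-60960824, plus strand: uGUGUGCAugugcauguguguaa

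A and C made up 70.0% of miR-466q, 71.4% of miR-467g, 85.7% of miR-467f and 86.4% of miR-466i-3p. G and U made up 69.6% of miR-466k, 90.0% of miR-669n, 68.2% of miR-467h and 73.9% of miR-466j. The 8 sequences have 8 different seeds, so family names do not group these 8 by seed. The seeds of the genes inside Sfmbt2 were not compared. Over the hairpins of all 81 genes, a median of 51.2% of neighbouring base pairs in the sequence were TG, GT, CA or AC (range 32.5 to 76.0%), against a median of 26.7% over the other 2121 genes. Hairpin GC content had a median of 36.5% in the families and 51.4% in the other genes.

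Of the 81 genes, 10 had at least 1 count on the sense strand, and 71 had none in either library. The counted genes were Mir467c, Mir467d and Mir467e, Mir669c, Mir669e, Mir669h, Mir669l and Mir669o, and, with 2 or 3 counts each, Mir466n and Mir466q. No miR-297 gene had a count. The share of genes with a count was 12.3% in the 4 families and 34.8% among the other 2121 genes. This difference was not tested, because related genes are not replicates.

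Library depth sets the limit of detection. Replicate 1 held 4494857 reads assigned to microRNA genes and replicate 2 held 2078824, so that 1 count equals 0.222 and 0.481 CPM (counts scaled to 1000000 gene counts per library). A count of 0 allows a level of up to 3 counts, or 0.667 and 1.44 CPM. These limits cover counting error only, and PCR copies are not told apart. Reads that map to several places, 29.8% of the reads of replicate 1 and 21.5% of replicate 2, are listed in a row of their own outside the gene counts, so a count of 0 does not show that a duplicated microRNA was absent.

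The families took 0.0628% of gene counts in replicate 1 (2823 counts, with a 95% Clopper-Pearson interval from 0.0605 to 0.0652). In replicate 2 they took 0.0519% (1078 counts, 0.0488 to 0.0550). The reads came almost wholly from the Sfmbt2 array, with 2823 of 2823 counts in replicate 1 (100%, interval 99.9 to 100) and 1076 of 1078 in replicate 2 (99.8%, 99.3 to 99.98). Together the 3 highest genes, Mir467d, Mir467e and Mir669c, held 84.3% of the families' counts in replicate 1 and 79.2% in replicate 2. Among reads assigned to genes, which leave out those that map to several places, none of either library lay on the strand opposite a member. A count of 0 there allows an antisense share of up to 0.106% in replicate 1 and 0.278% in replicate 2. Over all microRNA genes the share was 15.04% and 16.2%, of which 99.9% in each library fell on genes that overlap another microRNA gene.

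The Sfmbt2 array is a single block. Sfmbt2 (ENSMUSG00000061186.15) lies on the plus strand of chromosome 2 in mm10, from 10370510 to 10595253. All 71 hairpins are on its strand, none overlaps an annotated exon of it, and all lie in intron 10 of transcript Sfmbt2-201, which is intron 11 of Sfmbt2-205. They span 51.6 kb, from 10466663 to 10518279, with a median gap of 209 bp between neighbouring members. The 29 miR-669, 23 miR-466, 14 miR-467 and 5 miR-297 genes are interleaved. The 10 Mir467a copies recur at a median spacing of 2462 bp (range 2413 to 4880). Another 46 annotated microRNA genes without a family name lie between the members on the same strand, 4 of them with a hairpin identical to a member's. Of the 46, 2 had a count, with 1 count each in replicate 2.

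Counts came from the ends of this array and not from its middle. At the 5′ end, 3 of the first 13 genes were counted, namely Mir669e, Mir669l and Mir467c. A run of 38 consecutive genes without a count followed, from Mir466b-1 to Mir669a-12 (10474219 to 10503877, 29.7 kb), which holds all 10 Mir467a copies. At the 3′ end, 6 of the last 20 genes were counted, from Mir467e to Mir669h. The 33 genes without a family name inside the run also had no count. The members before the run summed to 45.4 CPM in the first library and 45.7 CPM in the other, and those after it to 583 and 472 CPM. The 3′ end was therefore the higher end in both libraries.

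**Figure D1:**
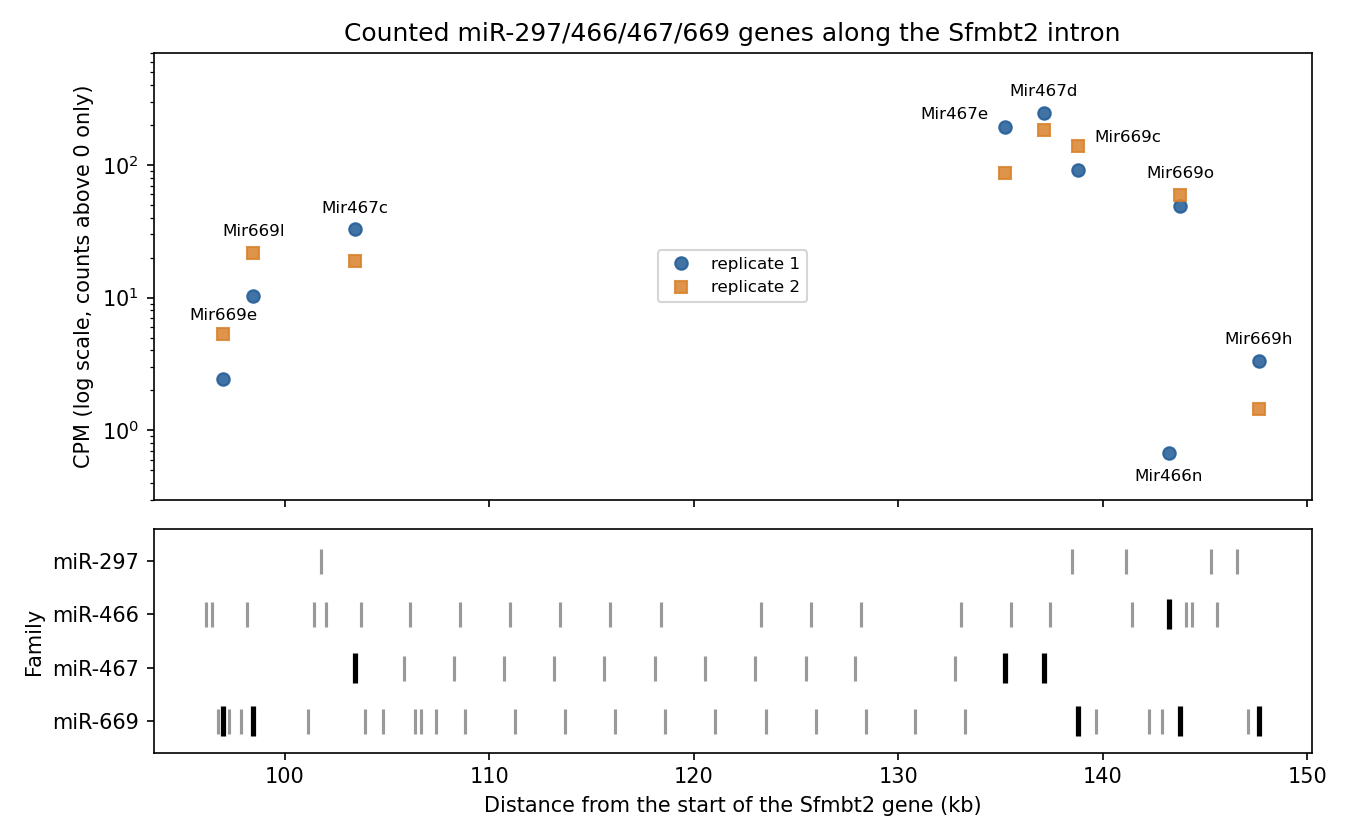
Levels of the 9 counted genes of the Sfmbt2 array (top, CPM on a log axis, circles for replicate 1 and squares for replicate 2) and positions of all 71 hairpins by family (bottom, black for counted, grey for not counted), against distance from the start of Sfmbt2 in kb. MicroRNA genes without a family name are not drawn. Between Mir467c and Mir467e lie 38 genes without a count.

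The uncounted middle is also where the hairpins are most alike. Each hairpin was read in windows of 22 bases, about the length of a mature microRNA, and a window was called unique when it occurs in no other annotated microRNA hairpin on either strand. In 32 of the 81 genes no window was unique, and 31 of these 32 lie in the run of 38. The other one is Mir669a-2 at the 3′ end. The 32 are the 10 Mir467a genes, 11 of the Mir669a group, both Mir669p genes and 9 miR-466 genes. None of the 32 had a count. Reads that map to several places stay outside the gene counts, so this result says little about the levels of these genes. In 26 genes, all in the array, the whole hairpin is identical to that of at least 1 other microRNA gene, and 9 of the Mir669a genes share a single sequence.

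Among the 26 family genes with some but at most 50% unique windows, 1 was counted, Mir467d with 39.1% unique windows. Among the 23 with more than 50%, 9 were counted (39.1%). The other microRNA genes showed the same order of shares, with 4 of 265 counted without a unique window (1.51%), 11 of 305 with up to 50% (3.61%) and 724 of 1551 above 50% (46.7%). With windows of 18 bases the family counts were 4 of 32 up to 50% (12.5%) and 6 of 17 above it (35.3%). These shares are descriptions without a test. Windows were compared with annotated hairpins only and not with the rest of the genome, so a window called unique may still occur elsewhere.

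Of the family genes with more than 50% unique windows, 14 had no count, 7 inside the array and 7 outside. In the array these were Mir466f-1, Mir669f, Mir669b, Mir466g, Mir466h, Mir466l and Mir669i. In Mir466g every window was unique, and 0 counts there allow at most 0.667 CPM of uniquely placed reads in replicate 1. Whether the remainder of the genome holds copies of their mature strands was not tested. Differences of the CAST/EiJ alleles from the mm10 sequence were not examined either.

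**Figure D2:**
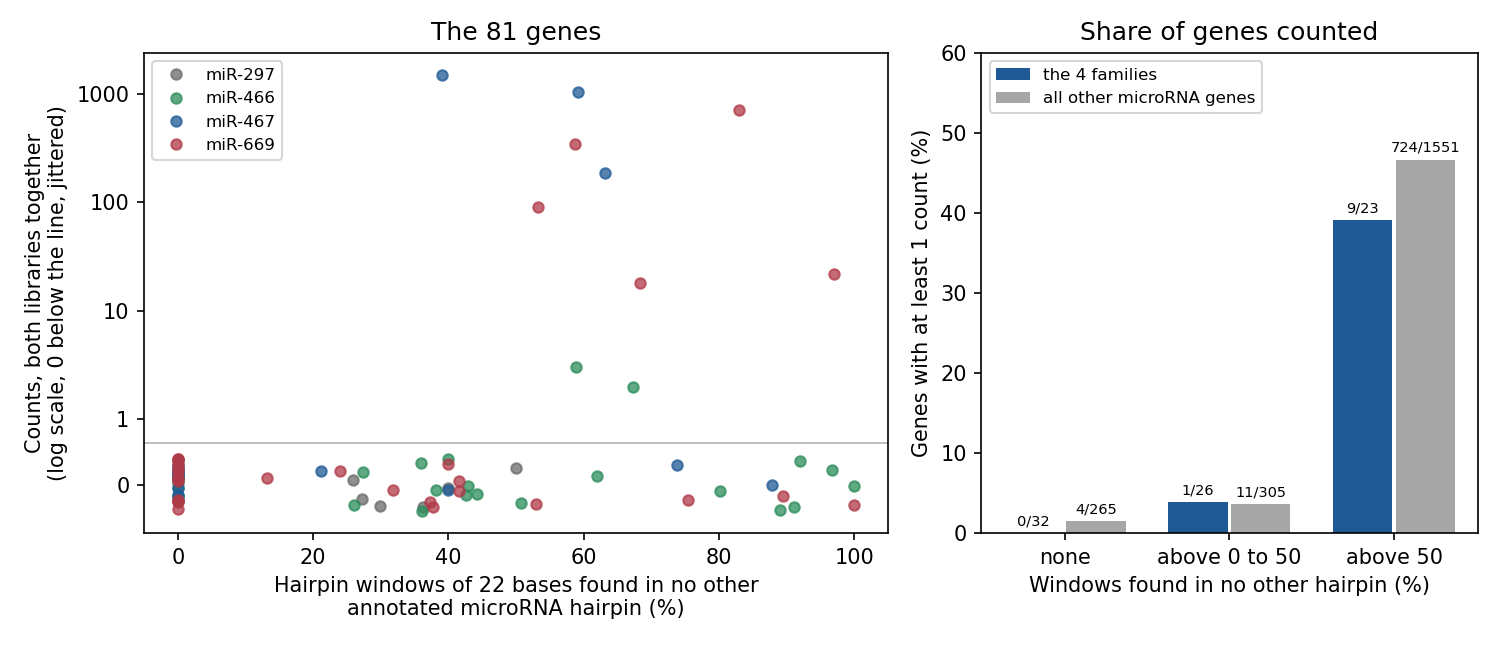
Left, counts of each of the 81 genes in both libraries together (log axis, genes with 0 counts below the line with random vertical spread) against the share of hairpin windows of 22 bases found in no other annotated hairpin. Right, share of genes with at least 1 count by class of unique windows, for the 4 families and all other microRNA genes, where 0 of 32, 1 of 26 and 9 of 23 family genes were counted.

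The miR-467 genes Mir467d and Mir467e were the highest of the families by mean. Mir467d (ENSMUSG00000077021.2, 10507630 to 10507714) had 1107 counts or 246 CPM in replicate 1 and 383 counts or 184 CPM in replicate 2. Its mean of 215 ± 43.9 CPM (SD, n = 2) ranks 160th of the 2202 genes. Mir467e (ENSMUSG00000076948.2, 10505721 to 10505807) had 864 counts or 192 CPM and 180 counts or 86.6 CPM, a mean of 139 ± 74.7 CPM (SD, n = 2). Mir467c (ENSMUSG00000077049.2, 10473931 to 10474027), at the other end of the array, had 147 counts or 32.7 CPM and 39 counts or 18.8 CPM. All 3 stood higher in replicate 1. The other 14 miR-467 genes had no count, among them Mir467b, with 21.2% unique windows.

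The means of the counted miR-669 genes ran from 2.39 CPM for Mir669h to 115 CPM for Mir669c. Mir669c (ENSMUSG00000076118.1, 10509296 to 10509404) had 409 counts (91.0 CPM) in replicate 1 and 291 counts (140.0 CPM) in replicate 2, a mean of 115 ± 34.6 CPM (SD, n = 2). Mir669o (ENSMUSG00000077086.1, 10514300 to 10514395) had 221 counts or 49.2 CPM and 124 counts or 59.6 CPM. Mir669l (ENSMUSG00000076959.1, 10468971 to 10469068) had 46 counts or 10.2 CPM and 45 counts or 21.6 CPM. These 3 stood higher in replicate 2 on the CPM scale, although Mir669o turned to the other side with TMM scaling over all genes with a count.

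Near the limit of detection were 4 genes. Mir669e (10467495 to 10467613) had 11 counts in each library, or 2.45 and 5.29 CPM. Mir669h (10518155 to 10518279), the last hairpin of the array, had 15 counts or 3.34 CPM and 3 counts or 1.44 CPM. Mir466n (10513741 to 10513834) had 3 counts in replicate 1 and 0 in replicate 2, both within the limit that a count of 0 allows. The only counted gene outside the array was Mir466q on chromosome 3 (28419943 to 28420018), in intron 2 of annotated transcripts of Tnik, which encodes a kinase of the Wnt pathway. It had 0 and 2 counts, which is likewise within that limit.

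The order of levels was only partly resolved by the 2 libraries. Mir467d was the highest in each library, although its range over the libraries overlapped that of Mir467e. Mir467e came next in replicate 1 and Mir669c in replicate 2, so the order of these genes is not fixed. Mir669o lay below all 3 in both libraries. Mir467c lay below Mir669o, and its range overlapped that of Mir669l. Mir669e and Mir669h overlapped and lay below Mir669l.

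**Figure D3:**
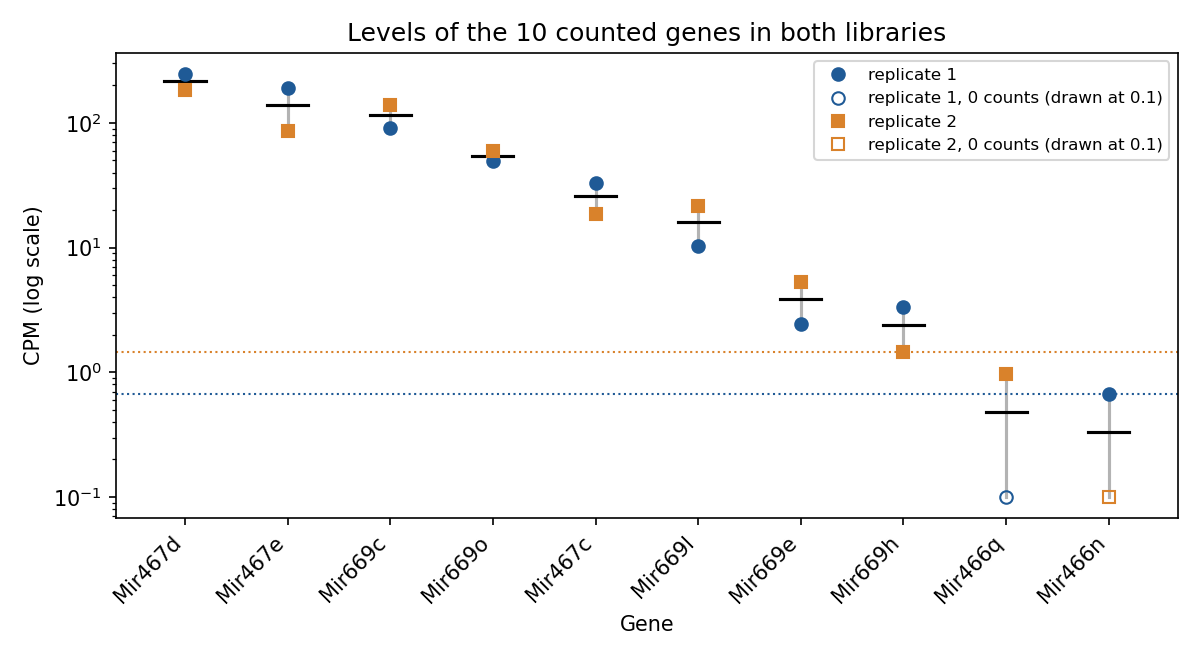
CPM (log axis) of the 10 counted genes in replicate 1 (circles) and replicate 2 (squares), joined by a grey line, with the mean as a black bar. Open symbols at 0.1 stand for 0 counts, and dotted lines mark 3 counts in each library, 0.667 and 1.44 CPM. Mir467d is the highest gene in each library, and Mir467e and Mir669c follow with ranges that overlap each other.

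Between the libraries, genes of the same intron differed in opposite directions, with Mir467c, Mir467d and Mir467e higher in replicate 1 and Mir669c and Mir669l higher in replicate 2. Ratios are replicate 2 over replicate 1 on the log2 scale after TMM scaling (a trimmed-mean scaling from edgeR), with exact binomial 95% intervals. The 7 family genes that reached 10 counts in each library were tested among 333 such genes. At a Benjamini-Hochberg adjusted p of 0.05 in an exact binomial test, 5 of the 7 differed between the libraries, where the background over all 333 genes was 78.1%. Differing is thus the common state of genes in these libraries, and 5 of 7 is near that share. Higher in replicate 1 were 3 (background 38.7%) and higher in replicate 2 were 2 (background 39.3%).

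All 3 tested miR-467 genes were called higher in replicate 1. The log2 ratio of Mir467e was -1.33 (interval -1.58 to -1.10, exact binomial adjusted p = 1.01e-34), that of Mir467c -0.97 (-1.54 to -0.47, exact binomial adjusted p = 0.000118) and that of Mir467d -0.60 (-0.78 to -0.44, exact binomial adjusted p = 7.61e-13). Of the 4 tested miR-669 genes, 2 were called higher in replicate 2. They were Mir669l at 0.90 (0.27 to 1.52, exact binomial adjusted p = 0.00541) and Mir669c at 0.44 (0.21 to 0.66, exact binomial adjusted p = 0.000150). Mir669e at 0.93 (-0.42 to 2.27) and Mir669o at 0.10 (-0.24 to 0.42) did not pass the test. Mir669h, below the minimum for testing, had a ratio of -1.22 with an interval of -3.82 to 0.43.

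With edgeR's exact test, none of the 7 genes was called at an adjusted p under 0.05, against a background of 1.8%. At an unadjusted p under 0.05 none of the 7 passed either, against 17 of all 333 genes. The dispersion of this test comes from the same libraries taken as 1 group (biological coefficient of variation 52.2%). It thus takes the differences between the libraries as noise, so few genes could be called and the lack of calls does not show that the libraries are alike. The smallest unadjusted edgeR p of the 7 was 0.237, for Mir467e. The median log2 ratio of the 7 genes was 0.10, beside 0.01 over all 333. Mir467e, the largest of the 7, ranked 55th of the 333 by absolute ratio.

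The division of the families' reads does not depend on the scaling between libraries. The miR-467 genes held 75.03% of the families' counts in replicate 1 (73.4 to 76.6 by the same interval) and 55.8% of those in replicate 2 (52.8 to 58.8). The miR-669 genes held 24.9% (23.3 to 26.5) and 44.0% (41.0 to 47.0). Within miR-467, the share of Mir467e among the families' counts was 30.6 and 16.7%, and that of Mir467d 39.2 and 35.5%. Mir669c held 14.5 and 27.0%. The intervals cover counting error only, and this division was looked at after the levels were known. With 1 library per sample, a difference between animals and one of collection, preparation or sequencing cannot be told apart.

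**Figure D4:**
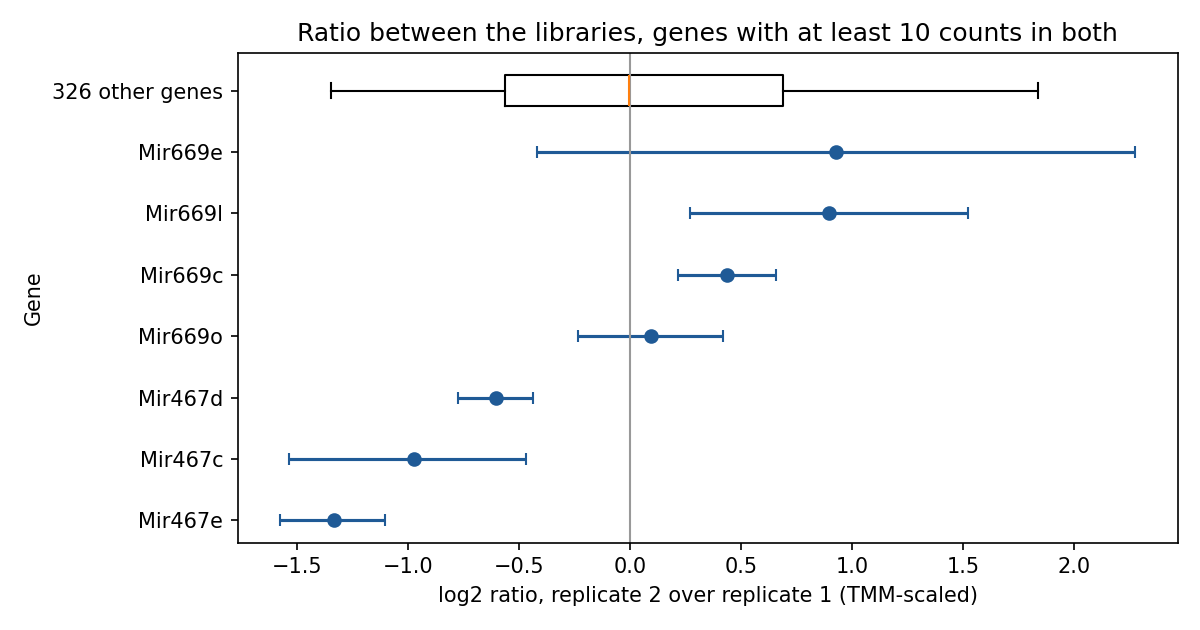
Log2 ratio of replicate 2 over replicate 1 after TMM scaling for the 7 tested family genes (points with exact binomial 95% intervals) and, at the top, for the 326 other tested genes (box for the middle 50%, line for the median, whiskers reaching to the 5th and 95th percentiles). The 3 miR-467 genes lie left of 0, and the 4 miR-669 points lie right of it, of which Mir669o moves to -0.072 with TMM over all genes with a count.

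The libraries also differed in microRNAs of other cell types, summed here per list. Epithelial genes of the miR-200 group (5 of 5 with counts) stood at 64.7 CPM in the first library and 3576 CPM in the other. Genes of pancreatic acinar cells (3 listed) all had 0 counts in replicate 1 and summed to 326 CPM in replicate 2. Erythroid genes (3 of 3) stood at 15841 and 1091 CPM, led by Mir451a. The log2 ratio after TMM scaling was -4.18 for Mir451a and -3.41 for Mir144. That of Mir486 was -0.32 and did not pass the exact binomial test (adjusted p = 0.131). Neuroendocrine genes led by Mir375, which are known from hormone-secreting cells such as those of the adrenal medulla, had 48802 and 54157 CPM. All 4 were counted, with a log2 ratio after TMM scaling of 0.04 for Mir375. The ratios of Mir7b, Mir7-1 and Mir7-2 were -1.21, -0.68 and -0.39. Endothelial genes (2 of 2) had 74842 and 64797 CPM, nearly all from Mir126a, since Mir126b had 51 and 23 counts. Leukocyte genes (4 of 4) had 1740 and 1891 CPM, but they did not move together. The log2 ratio after TMM scaling was 0.40 for Mir150, and -0.52, -0.56 and -0.56 for Mir142, Mir155 and Mir223. The part of these cell types in the miR-467 and miR-669 levels was not tested.

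Beside other large mouse microRNA clusters, the Sfmbt2 array was sparsely counted. In the imprinted Dlk1-Dio3 region of chromosome 12, expressed from the maternal chromosome, 54 of 66 microRNA genes had a count (81.8%), against 9 of 71 in the array (12.7%). The region summed to 58145 and 56629 CPM in the 2 libraries, and the 4 families to 628 and 519 CPM. Only 1 of its 66 hairpins had no unique window, against 32 of 71 in the array. The Mir290 to Mir295 cluster of embryonic stem cells had 6 of 9 genes counted and 35.2 and 78.9 CPM. The X-linked cluster known from testis had 7 of 21 counted and 8.68 and 4.33 CPM. The families thus stood above both of these in summed level and far below Dlk1-Dio3 in each library, over the reads that were placed uniquely. No test was made between clusters.

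Outside Sfmbt2, the 10 genes lie on chromosomes 3, 5, 7, 9, 10, 11 and 13, and only Mir466q had a count. Besides Mir466q none lies in a gene on its own strand. On the opposite strand, Mir669n lies within Slc30a7, Mir467g within Grk4, Mir467f within Fxr2, Mir466i within Cdk13 and Mir466k within Gm37240. Their hairpins are less alike than those of the array, with 40.0 to 100% unique windows (median 77.0%) against a median of 25.9% in the array. Sequences such as miR-467f and miR-466i-3p consist mostly of A and C. Their genes had 0 counts in both libraries.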

How the data were processed

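The tables hold raw counts of reads for each microRNA gene, as the authors deposited them, in a strand-blind column and one for each strand. Build mm10 and annotation M21 are named in the accompanying text. No aligner or counting program is given in the sources used here. The sense column was used and scaled to CPM over all gene rows, with no scaling by length, since counts refer to hairpins. Reads that name no gene stayed out of the totals and made up 63.4% and 79.9% of replicates 1 and 2. Unmapped reads alone were 26.4% of replicate 1 and 51.9% of replicate 2. All 2202 identifiers matched GENCODE M21. Named genes are all members with a count, by a rule that takes members with 10 counts or more in each library, the 15 highest members, the 5 highest outside Sfmbt2 and the highest of each family. The remaining places of that rule fell on genes with 0 counts. Hairpin properties came from GENCODE transcript sequences, and a hairpin overlapping another on the genome was not taken as a second copy.

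TMM factors were computed over the 333 genes that reached 10 counts in each library, and log2 ratios used a prior count of 0.5. The 2-sided exact binomial test was checked on simulated data with counting noise only and with DESeq2 scaling in place of TMM. That check does not cover variation between libraries beyond counting noise. The members and lists were chosen with earlier results of these data known. Software was R 4.3.3, edgeR 4.0.16, DESeq2 1.42.0, Python 3.11.15, SciPy 1.17.1, pandas 2.3.3, NumPy 2.4.6 and matplotlib 3.10.9.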

Additional observations from a re-analysis of the deposited data

How the results depend on the processing

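Only 7 of the 81 genes could be compared between libraries, and copies with identical hairpins could not be counted apart. The part of depth and of unique placement in the genes without a count was not tested. Of 102 alternative values for 26 results, 92 were classed as unchanged. These kept their direction and side of the threshold, or moved by no more than the spread between the libraries. For counts of genes the limit was 1.5 times. Many of the 92 were fixed in advance. A share or mean CPM of 1 library always lies within the spread of 2 libraries. Ratios without a prior count reused the main p-values. The strand and 50 kb settings for Sfmbt2 took in the same members. The tally therefore says little about robustness. With a count minimum of 50, 4 members qualified and 3 differed between the libraries. The edgeR exact test, whose dispersion takes the differences between the 2 libraries as noise, called 0 members. The families' mean share of gene counts, 0.0573%, was 0.0703% in the strand-blind column, 0.0660% without the highest gene, 0.0358% without the highest member and 0.0167% of all reads. The strand-blind column, which sets reads of overlapping genes aside as ambiguous, moved Mir467d to 264 CPM and Mir669o to 66.9 CPM. The log2 ratio of Mir669o turned from 0.10 to -0.072 with TMM over all 749 genes with a count, a setting added after seeing the data. Library-size and DESeq2 scaling changed none of the 7 calls or directions, although library-size scaling moved the median log2 ratio of all tested genes from 0.01 to 0.19. With 1 library alone, the means of Mir467e, Mir669e, Mir669l and Mir669h moved by over 1.5 times, to 86.6, 2.45, 10.2 and 1.44 CPM at the lower end. Mir466q (mean 0.481 CPM) went to 0 or 0.962 CPM and Mir466n (mean 0.334 CPM) to 0 or 0.667 CPM. Windows of 18 or 25 bases, also added after seeing the data, left 32 and 31 members without a unique window, none with a count. Since reads that map to several places were not counted, the lack of counts there says little about robustness. Windows of 18 bases moved the counted members with up to 50% unique windows from 1 of 26 to 4 of 32, and those above 50% from 9 of 23 to 6 of 17, and windows of 25 bases gave 1 of 24 and 9 of 26. Matching of mature sequences to the genome was not run. No paired analysis was possible because there is only 1 group.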
